A study of Macaca mulatta with 51 samples.

Results

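Lipolysis and lipid droplet genes were examined in subcutaneous adipose tissue (AT) and gastrocnemius skeletal muscle (SM) of diet-induced obese rhesus macaques treated with FGF21. The list held 10 genes (PNPLA2, LIPE, ABHD5, G0S2, MGLL, PLIN1, PLIN2, PLIN4, PLIN5 and CIDEC), and members were the rows of the gene count table that carry these symbols. Of the 10 genes, 5 had a row among the 16033 genes of the table: ABHD5 (ENSG00000011198), G0S2 (ENSG00000123689), MGLL (ENSG00000074416), PLIN1 (ENSG00000166819) and PLIN2 (ENSG00000147872). PNPLA2, LIPE, PLIN4, PLIN5 and CIDEC were not analysed here.

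The animals, 5 males and 5 ovariectomized females aged 11 to 22 years, had eaten a high-fat diet for 2 years or more beforehand, which all groups share. Punch biopsies were taken pre-treatment, after 12 weeks of daily subcutaneous injection of native human FGF21 at rising doses (post-treatment), and 16 weeks after injections stopped (washout). The same animals served as their own reference and no vehicle-treated group was analysed here, so the treatment, the weight loss that accompanied it and the passage of time cannot be told apart. Total counts per library ranged from 14455195 to 23940980 over 48 libraries: 10 pre-treatment, 9 post-treatment and 8 washout libraries in AT, and 6, 8 and 7 in SM, from 10 and 8 animals.

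Triglyceride in fat cells is stored in droplets coated by perilipins and is hydrolysed stepwise. Adipose triglyceride lipase (encoded by PNPLA2) removes the first fatty acid, hormone-sensitive lipase (LIPE) acts on the diglyceride, and monoglyceride lipase (MGLL) releases glycerol. ABHD5, also called CGI-58, activates the first lipase and G0S2 inhibits it, while PLIN1, the perilipin of adipocytes, holds ABHD5 at the droplet until protein kinase A phosphorylates PLIN1 and releases it; PLIN2 coats droplets in many cell types, lipid-laden macrophages among them.

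The tissue labels were checked against marker genes. The summed level of 8 adipocyte markers was 14424 to 51277 CPM (counts scaled to a common library total) in AT and 121 to 1802 CPM in SM, and that of 8 muscle markers was 65.6 to 183 CPM in AT and 49277 to 259435 CPM in SM. The post-treatment SM libraries differed in makeup: those of animals 20275, 21189, 21866 and 24849 had muscle sums of 49277 to 121278 CPM and summed progenitor and matrix markers of 3273 to 8850 CPM, against 232525 to 259435 CPM and 231 to 456 CPM in the other 4. No adipocyte or muscle marker was at 0 in all libraries of a group. Library identifiers fall into 3 number series, whose meaning the labels do not give. In AT 7 of 10 pre-treatment, 7 of 9 post-treatment and 4 of 8 washout libraries belong to the last series. SM held 5 first-series and 3 last-series libraries post-treatment against 6 of the last and 1 of the middle series at washout. The identifier series and the washout comparisons therefore overlap in SM and, in part, in AT. In SM the 3 last-series post-treatment libraries are among the 4 that were low in muscle markers.

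In AT, G0S2 and PLIN1 were lower post-treatment than pre-treatment, and ABHD5, MGLL and PLIN2 did not pass the test. A gene was called when its adjusted p was under 0.05 and its log2 fold change was beyond 0.26 in either direction, in edgeR's quasi-likelihood test, with p adjusted by Benjamini-Hochberg over every gene that was tested in that tissue. By this rule 2 of 5 members were called, both lower, where 15.5% of the 13367 genes tested were called and 8.49% were called lower. Between post-treatment and washout 2 of 5 members were called, MGLL and PLIN2, both lower, where 35.4% of all genes were called and 17.8% were called lower. These shares were counted over few members, and in bulk tissue fewer cells of a type and less RNA per cell cannot be told apart.

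**Figure D1:**
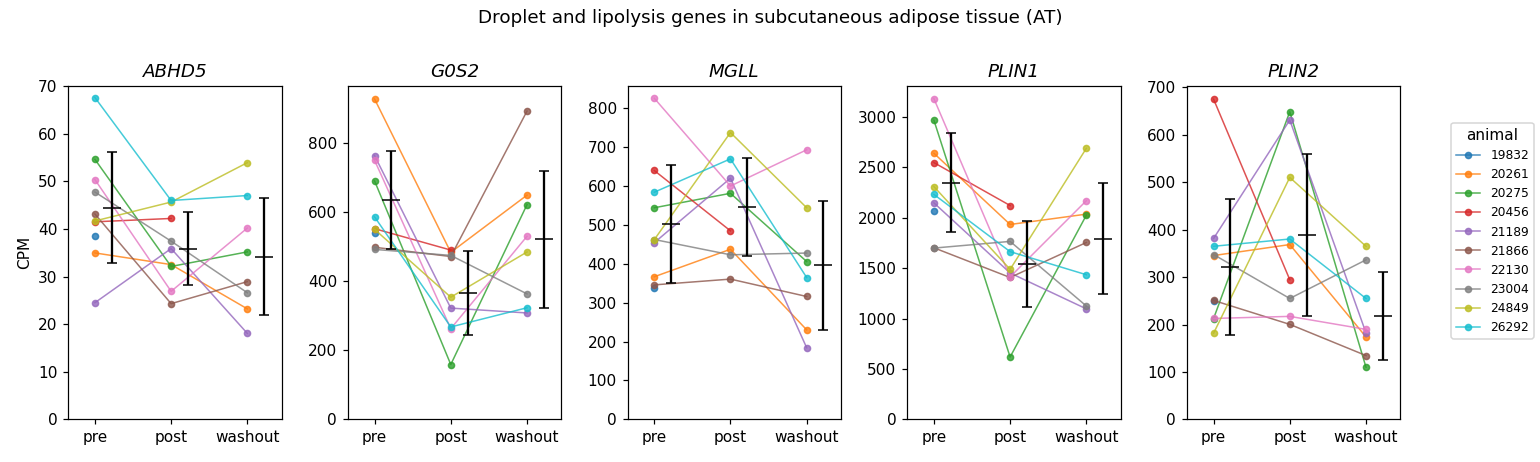
Levels of the 5 genes in AT (y axis, CPM from 0 upward) at the 3 time points, with 1 line per animal and bars of mean ± SD beside the points. G0S2 did not overlap between pre- and post-treatment libraries (lowest 492 and highest 490.3 CPM), and PLIN1 was lowest in animal 20275 post-treatment at 619 CPM. The share of all genes without overlap was not counted.

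G0S2, the inhibitor of adipose triglyceride lipase, showed the clearest difference of the members post-treatment. Pre-treatment, its lowest, median and highest levels over 10 libraries were 492, 569 and 928 CPM. Post-treatment they were 159, 354 and 490.3 CPM over 9 libraries. Every post-treatment library lay below every pre-treatment library, although the margin between the groups was narrow. G0S2 was the 1 member of 5 for which this held, and the share of all genes without overlap was not counted. The mean went from 635 ± 143 CPM (SD, n = 10) to 365 ± 121 CPM (SD, n = 9), and the log2 fold change was -0.86 (SE 0.21, adjusted p = 0.0139 by edgeR), a 1.82-fold lower level. All 9 animals sampled at both times were lower post-treatment, by between -0.05 and -2.12 on the log2 CPM scale. The spread among animals was wide: animals 20456, 21866 and 23004 barely moved, and animals 20275 and 22130 moved most.

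At washout, G0S2 lay at 308, 508 and 893 CPM (lowest, median and highest of 8 libraries), overlapping both earlier groups. It was higher than post-treatment in 6 of 8 animals, at 0.52 on the log2 scale (SE 0.22, adjusted p = 0.0714 by edgeR), which did not pass the test. The washout libraries were below pre-treatment in 7 of 8 animals, with a log2 fold change of -0.35 (adjusted p = 0.274 by edgeR). The washout level therefore stood between the other time points and was distinguishable from neither by this test. Leaving out animal 23004, or its washout library alone, gave a called increase from post-treatment to washout, as did DESeq2 and scaling by library size.

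ABHD5, the activator of the same lipase, was measured at 24.5, 42.4 and 67.6 CPM pre-treatment (lowest, median and highest). Post-treatment the corresponding levels were 24.3, 35.9 and 46.0 CPM, and at washout 18.1, 32.0 and 53.9 CPM. The groups overlapped throughout, with the highest pre-treatment value in animal 26292. The log2 fold change was -0.30 post-treatment (SE 0.14, adjusted p = 0.144 by edgeR, lower in 6 of 9 animals; without animal 21189 it was called, at -0.43 with an adjusted p of 0.0476) and -0.42 at washout compared to pre-treatment (SE 0.15, adjusted p = 0.0504 by edgeR, lower in 7 of 8 animals). The washout difference lay next to the threshold and was called in 8 of 22 alternative analyses, among them voom at an adjusted p of 0.00789 and DESeq2 at 0.0356.

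Because an inhibitor and an activator of 1 enzyme can be set against each other within a library, the log2 ratio of G0S2 to ABHD5 was followed in each animal, a ratio that was chosen after the data were seen. It averaged 3.85 ± 0.57 pre-treatment (SD, n = 10), 3.29 ± 0.63 post-treatment (SD, n = 9) and 3.93 ± 0.74 at washout (SD, n = 8). The ratio rose from post-treatment to washout in 8 of 8 animals, by 0.67 ± 0.57 (SD), with an exact sign-flip p of 0.00781, the smallest that 8 animals can give; adjusted over 12 ratio tests it was 0.0938 and did not pass. From pre- to post-treatment the mean change was -0.57 ± 0.78 (SD, n = 9, exact p = 0.0664, adjusted 0.266), with 7 of 9 animals lower.

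MGLL, which hydrolyses the monoglyceride left by the earlier steps, was at 338, 462 and 825 CPM pre-treatment (lowest, median and highest). Post-treatment it was at 360.2, 580.5 and 736 CPM, and at washout at 184, 385 and 692 CPM. The 3 groups overlapped, and the lowest washout value was in animal 21189. Post-treatment the log2 fold change was 0.10 (SE 0.15, 95% interval -0.23 to 0.42, adjusted p = 0.694 by edgeR), so no difference was detectable. At washout compared to post-treatment it was -0.52 (SE 0.16, adjusted p = 0.0171 by edgeR), 1.43-fold lower, with 6 of 8 animals lower. This call was lost without the animal term, with only the 2 time points in the fit, and without animal 20261, 21189 or 26292. Compared to pre-treatment the washout value was -0.42 (SE 0.16, adjusted p = 0.0710 by edgeR), with 7 of 8 animals lower.

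PLIN1, the adipocyte perilipin that gates lipolysis, lay at 1698, 2269 and 3179 CPM pre-treatment (lowest, median and highest). Post-treatment it lay at 619, 1487 and 2120.1 CPM and at washout at 1096, 1889 and 2687 CPM. The pre- and post-treatment groups overlapped, and the post-treatment library of animal 20275 stood far below the next lowest, 1407 CPM. The mean went from 2348 ± 491 CPM (SD, n = 10) to 1540 ± 426 CPM (SD, n = 9) post-treatment. The log2 fold change was -0.62 (SE 0.20, adjusted p = 0.0383 by edgeR), 1.54-fold lower, with 8 of 9 animals lower. The direction was the same in 22 of 22 alternatives, but the call was made in 13 of them, with adjusted p between 0.00864 and 0.116. It was lost with only the 2 time points in the fit, without animal 20261, 20275, 21189, 21866, 22130, 24849 or 26292, and without the pre-treatment library of animal 20275. At washout PLIN1 was called against neither earlier group (log2 fold change 0.22 from post-treatment, adjusted p = 0.408; -0.40 from pre-treatment, adjusted p = 0.175, both by edgeR).

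PLIN2, the perilipin found in many cell types, was at 181, 298 and 675 CPM pre-treatment (lowest, median and highest). Its levels were 200.3, 369 and 649 CPM post-treatment and 109.96, 186 and 365 CPM at washout. All groups overlapped, and the highest pre-treatment library, from animal 20456, stood apart from the next at 381 CPM. Post-treatment the log2 fold change was 0.26 (SE 0.27, adjusted p = 0.535 by edgeR), and individual animals ranged from -1.20 to 1.61 on the log2 CPM scale, with 6 of 9 higher. The fitted value was 0.05 without animal 20275 and by voomWithQualityWeights, 0.13 without animal 24849 and 0.43 without animal 20456. At washout PLIN2 was 1.71-fold lower than post-treatment, at -0.77 on the log2 scale (SE 0.28, adjusted p = 0.0389 by edgeR), with 7 of 8 animals lower. That call was lost with the identifier series as a covariate, although the value stayed at -0.74 (adjusted p = 0.0912 by edgeR), and without animal 20261, 20275, 21189, 21866 or 26292, with values from -0.81 to -0.52. Compared to pre-treatment the log2 fold change was -0.52 (SE 0.29, adjusted p = 0.211 by edgeR).

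**Figure D2:**
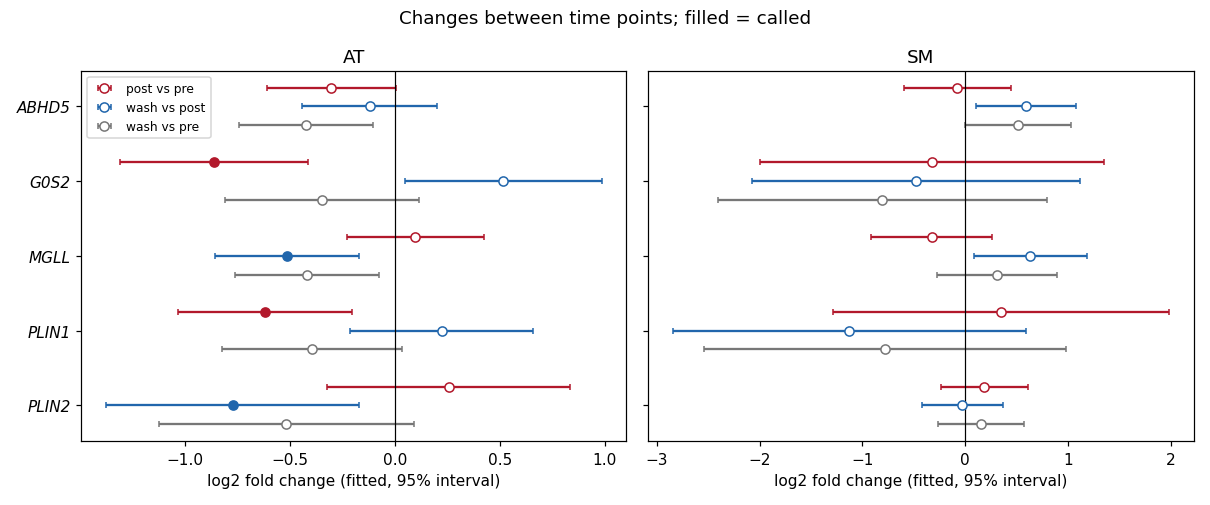
Fitted log2 fold changes of the 5 genes (x axis) with 95% intervals for the 3 comparisons in AT (left) and SM (right), where filled points mark called genes and the panels have different scales. In AT, G0S2 (-0.86) and PLIN1 (-0.62) were called post-treatment and MGLL (-0.52) and PLIN2 (-0.77) at washout compared to post-treatment, and no point is filled in SM. The intervals and the tests used different degrees of freedom. For ABHD5 in SM between pre-treatment and washout the interval was -0.0037 to 1.03, with an unadjusted p of 0.0452 by edgeR.

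Between pre-treatment and washout in AT, 0 of 5 members were called by edgeR, where 20.5% of all genes were called. All 5 fitted log2 fold changes were below 0, with a median of -0.42 against -0.02 over all genes. An unadjusted p under 0.05 was reached by 2 members, ABHD5 and MGLL, and by 34% of all genes, while voomWithQualityWeights of limma called 3 members and DESeq2 called 2. The shares of all genes called by those other fits are not given here, so their counts cannot be set against the 20.5%, which is from edgeR. The summed adipocyte markers were lower at washout than pre-treatment in 7 of 8 animals (median change -0.45 on the log2 scale), and ABHD5, MGLL and PLIN2 changed in the direction of that sum in 8 of 8 animals, PLIN1 in 7 and G0S2 in 6. Because the sum was lower in 7 of 8 animals, these counts largely restate how many animals were lower for each gene. All 8 adipocyte markers and all 10 macrophage markers were fitted lower, with 0 and 4 of them called. The washout comparisons share libraries with each other and with the post-treatment comparison, so the values of a gene in the 3 comparisons are not independent.

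Markers of other cells moved at the same time points. The summed level of 10 macrophage markers in AT, none of which was at 0 throughout, ranged from 688 to 3437 CPM pre-treatment, from 1353 to 9541 CPM post-treatment and from 523 to 4076 CPM at washout. The sum was higher post-treatment in 6 of 9 animals and lower at washout than post-treatment in 7 of 8. Of these 10 genes, 1 was called higher post-treatment, where 6.98% of all genes were called higher. At washout compared to post-treatment 10 were called lower, where 17.8% of all genes were called lower. PLIN2 changed in the same direction as the macrophage sum in 9 of 9 animals from pre- to post-treatment and in 8 of 8 from post-treatment to washout. MGLL did so in 7 of 9 and 7 of 8 animals. ABHD5, G0S2 and PLIN1 did so in 4, 3 and 2 of 9 animals post-treatment. From pre-treatment to washout, PLIN2 and MGLL each followed the macrophage sum in 5 of 8 animals. In SM, PLIN2 followed that sum in 1 of 6 animals post-treatment and in 0 of 7 from post-treatment to washout. In the same SM comparisons PLIN2 followed the summed muscle markers in 6 of 6 and 7 of 7 animals. PLIN2 went opposite to the summed progenitor and matrix markers in 5 of 6 and 7 of 7.

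The summed level of the 8 adipocyte markers fell post-treatment in 9 of 9 animals, with a median change of -0.26 on the log2 scale. Its range was 23870.1 to 51277 CPM pre-treatment, 14424 to 36634 CPM post-treatment and 15582 to 46957 CPM at washout. G0S2 changed in the direction of this sum in 9 of 9 animals, PLIN1 in 8 of 9, ABHD5 in 6 of 9 and MGLL and PLIN2 each in 3 of 9. Because the sum fell in every animal, these counts restate how many animals were lower for each gene. From post-treatment to washout the sum was higher in 4 of 8 animals. ABHD5 followed it in 7 of 8, G0S2 in 6 of 8, PLIN1 in 5 of 8, MGLL in 4 of 8 and PLIN2 in 3 of 8. Of the 8 genes, 5 were called lower post-treatment, where 8.49% of all genes were called lower. They were LEP, GPAM, PPARG, TRARG1 and LPL, which are named here because they are the ones counted. The others were not called: ADIPOQ (-0.21, adjusted p = 0.509) and FABP4 (-0.17, adjusted p = 0.599) were fitted lower and CFD (0.23, adjusted p = 0.467) higher, by edgeR. The summed level of 6 progenitor and matrix markers, none of which was at 0 throughout, was 8543 to 18809 CPM pre-treatment, 10770 to 22978 CPM post-treatment and 6421 to 20804 CPM at washout. It was higher post-treatment in 8 of 9 animals and lower at washout than post-treatment in 7 of 8, with 2 genes called higher and then 3 called lower. Of all genes, 6.98% were called higher and 17.8% lower in these respective comparisons. G0S2 changed in the opposite direction to this sum in 8 of 9 and 7 of 8 animals. Erythroid markers, 2 of 5 of which were at 0 throughout, were higher in sum at washout than post-treatment in 7 of 8 animals. Of these, 3 of 3 tested genes were called higher, where 17.6% of all genes were called higher. The part of these cell types in the differences of the 5 members was not tested.

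Within the last identifier series, 6 animals had both AT libraries. G0S2 was lower post-treatment in 6 of 6 (mean change -1.03 in log2 CPM), PLIN1 was lower in 6 of 6 (-0.77) and MGLL was higher in 6 of 6 (0.29), each with an exact sign-flip p of 0.0312, the smallest that 6 animals can give and not adjusted. PLIN2 was higher in 5 of 6 of these animals (0.61, exact p = 0.156) and ABHD5 in 2 of 6 (-0.26, exact p = 0.281). The middle series held 2 animals with both libraries, in which G0S2 changed by -0.11 on average, PLIN1 by -0.10, MGLL by -0.26 and PLIN2 by -0.82. From post-treatment to washout, 3 animals lay within the last series, too few for a test, and MGLL (-0.96) and PLIN2 (-1.15) were lower in all 3.

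**Figure D3:**
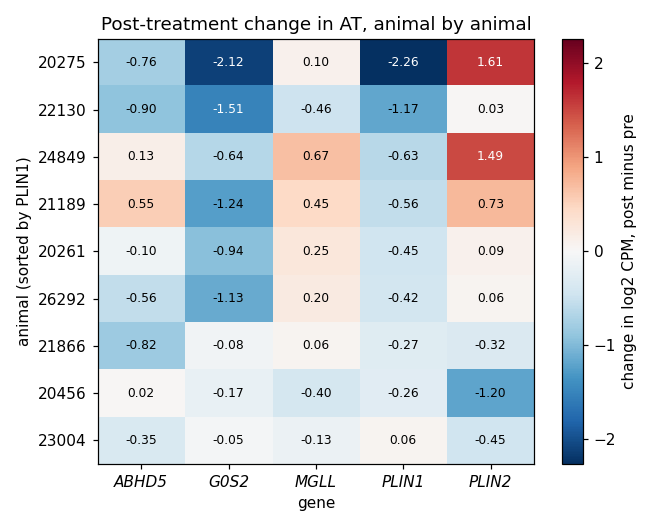
Change from pre- to post-treatment in AT in log2 CPM for each of the 9 animals with both libraries (rows, sorted by PLIN1) and each gene (columns), with red for higher and blue for lower. G0S2 is blue in every row, and the animals with the strongest PLIN1 decrease, 20275 (-2.26) and 22130 (-1.17), also had the strongest G0S2 decreases (-2.12 and -1.51).

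The size of the response differed between animals, and the members were compared animal by animal. Over 9 animals the post-treatment changes of G0S2 and PLIN1 went together, with Pearson's r of 0.872 (exact permutation p = 3.58e-04, adjusted over 10 pairs 0.00358) and Spearman's rho of 0.867 (exact permutation p = 0.00451, adjusted 0.0451). Without the 2 animals farthest from the median change of G0S2, r was 0.751, and within the last identifier series it was 0.832 (n = 6, exact permutation p = 0.0306). PLIN1 and PLIN2 went in opposite directions, with r of -0.673 (exact permutation p = 0.0430, adjusted 0.133) and rho of -0.817 (exact permutation p = 0.0108, adjusted 0.0538), neither of which passed after adjustment. Without the 2 animals farthest in PLIN1 that r was -0.751. MGLL and PLIN2 had r of 0.687 (exact permutation p = 0.0401, adjusted 0.133), and the adjusted p for r was 0.133 for G0S2 with PLIN2 and at least 0.315 for the other 6 pairs.

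PLIN2 was also set against PLIN1 within each library, since such a ratio does not depend on scaling. In AT the log2 ratio of PLIN2 to PLIN1 averaged -2.94 ± 0.67 pre-treatment (SD, n = 10), -2.04 ± 0.99 post-treatment (SD, n = 9) and -3.08 ± 0.80 at washout (SD, n = 8). It was higher post-treatment in 6 of 9 animals (mean change 0.89 ± 1.46 SD, exact sign-flip p = 0.0977, adjusted 0.293). From post-treatment to washout it was lower in 7 of 8 animals (mean change -1.15 ± 1.49 SD, exact p = 0.0391, adjusted 0.234). Neither change passed after adjustment over 12 tests, and without animal 20275 the means were 0.52 and -0.70, each over 1.5 times smaller.

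**Figure D4:**
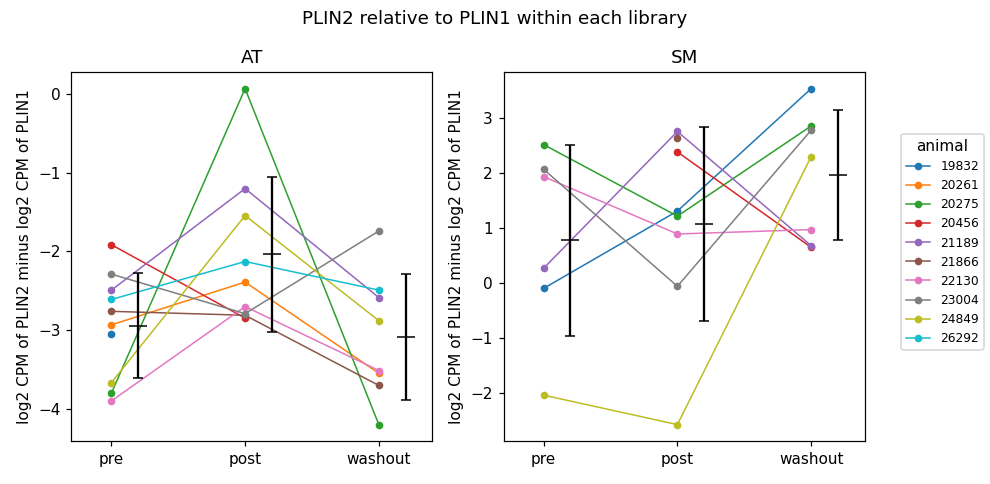
Difference between log2 CPM of PLIN2 and of PLIN1 in each library (y axis) at the 3 time points in AT (left) and SM (right), with 1 line per animal and bars of mean ± SD. In AT the mean was -2.94 pre-treatment, -2.04 post-treatment and -3.08 at washout, and animal 20275 covered the widest range.

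As a description, the genes whose log2 CPM followed each member most closely over the 27 AT libraries were listed among the 12130 genes that averaged 1 CPM or more, with Pearson's r. For G0S2 they were CD151 (0.892), HOXA7 (0.878) and PTH1R (0.869), and for PLIN1 MAOA (0.884), TDRKH (0.880) and PECR (0.874). For PLIN2 they were CD300A (0.865), S100A11 (0.855) and PI4K2A (0.851), and for MGLL IRF8 (0.792), ZFYVE26 (0.775) and GPAT3 (0.771). ABHD5 was followed by ACO1 (0.891), SEPT11 (0.870) and MTHFD1 (0.855). These libraries share animals and time points, so the points are not independent.

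In SM, 0 of 5 members were called in any comparison by edgeR, where 0% of the 12617 genes tested were called post-treatment, 0.19% between post-treatment and washout and 0.0634% between pre-treatment and washout. voomWithQualityWeights and DESeq2 also called 0 members in each, and the shares of all genes they called are not given here. An unadjusted p under 0.05 was reached by 0 members post-treatment (3.25% of all genes), by ABHD5 and MGLL between post-treatment and washout (17.3%) and by ABHD5 between pre-treatment and washout (13.4%).

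ABHD5 in SM lay at 6.20, 13.0 and 15.96 CPM pre-treatment (lowest, median and highest of 6 libraries). Post-treatment its levels were 4.16, 11.9 and 18.8 CPM over 8 libraries, and at washout 14.7, 18.4 and 20.7 CPM over 7. The washout libraries lay closer together than the earlier ones and overlapped both groups. The log2 fold change from post-treatment to washout was 0.59 (SE 0.22, adjusted p = 0.205 by edgeR), with 6 of 7 animals higher. MGLL in SM was at 37.4, 66.4 and 114 CPM pre-treatment, 18.5, 55.9 and 73.1 CPM post-treatment, and 47.8, 77.2 and 115 CPM at washout. Its washout value against post-treatment was 0.63 (SE 0.25, adjusted p = 0.225 by edgeR), also with 6 of 7 animals higher, and again the groups overlapped. With the identifier series as a covariate both became called, at log2 fold changes of 1.05 for ABHD5 (adjusted p = 0.0110) and 1.35 for MGLL (adjusted p = 0.00317) by edgeR, in a fit that called 21.0% of all genes. Without the 4 post-treatment libraries low in muscle markers, the values were 0.24 for ABHD5 (adjusted p = 0.593) and 0.19 for MGLL (adjusted p = 0.665) by edgeR, over 1.5 times smaller, and 0 members were called in any SM comparison. The share of all genes called in that smaller fit is not given here.

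G0S2 in SM spread more widely between animals than in AT, at 44.4, 110.5 and 633 CPM pre-treatment. It was at 14.4, 95.5 and 239 CPM post-treatment and at 18.2, 63.5 and 316 CPM at washout. Single animals set the upper ends: animal 19832 pre-treatment and animal 23004 at washout. The post-treatment log2 fold change was -0.32 with a 95% interval from -1.9996 to 1.35, an interval that includes the AT value. PLIN2 in SM ranged from 12.5 to 51.0 CPM over the 21 libraries, and its largest fitted change was 0.19 post-treatment (SE 0.19, adjusted p = 0.9996 by edgeR), or 0.68 (adjusted p = 0.136 by edgeR) without the 4 libraries low in muscle markers.

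PLIN1 in SM was at 4.72, 9.76 and 104 CPM pre-treatment, at 1.80, 10.1 and 133 CPM post-treatment and at 1.63, 6.11 and 29.3 CPM at washout, from 25 to 3140 counts. The highest library of each group was far above the rest, namely animal 24849 pre-treatment and post-treatment and animal 20456 at washout. The same libraries held the highest summed adipocyte markers of their groups, at 1134, 1802 and 735 CPM, against medians of 198, 244 and 237 CPM. The part of fat tissue in the SM biopsies in these PLIN1 values was not tested.

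**Figure D5:**
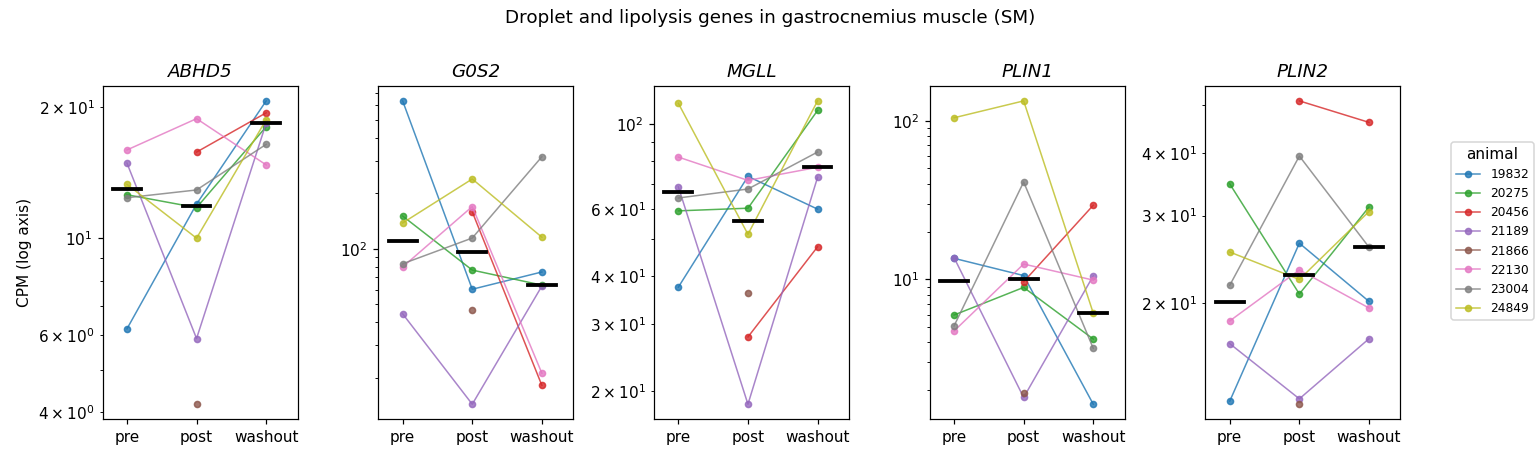
Levels of the 5 genes in SM (y axis, CPM on a log axis with its own range for each gene) at the 3 time points, with 1 line per animal and horizontal bars at the group medians. PLIN1 spans 1.63 to 133 CPM with the highest values in animal 24849, and ABHD5 at washout lies between 14.7 and 20.7 CPM.

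Pre-treatment, all 5 members were higher in AT than in SM by the edgeR test with a log2 fold change limit of 1, where 51.3% of 13662 genes were called and 31.3% were called higher in AT. PLIN1 differed most, 93.6-fold (log2 fold change 6.55, SE 0.74, adjusted p = 7.13e-10). PLIN2 was 8.39-fold higher (3.07, SE 0.31, adjusted p = 3.46e-11 by edgeR) and MGLL 4.56-fold (2.19, SE 0.25, adjusted p = 5.47e-10 by edgeR). G0S2 was 2.53-fold higher (1.34, SE 0.54, adjusted p = 0.0235 by edgeR) and was called in 9 of 13 alternatives. ABHD5 was 2.01-fold higher (1.01, SE 0.22, adjusted p = 9.61e-05 by edgeR), at the fold change limit, and was called in 6 of 13. The order of these folds compares each gene with itself between tissues.

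The difference between the tissues in their changes was tested directly as an interaction. For MGLL the change from post-treatment to washout was lower in AT than in SM by a log2 difference of -1.16 (SE 0.31, adjusted p = 0.00751 by edgeR), where 22.7% of 12322 genes were called. This was the 1 member called, and the call was made in 14 of 15 alternatives. Without the 4 post-treatment SM libraries low in muscle markers it was lost, at -0.68 (adjusted p = 0.0716 by edgeR), over 1.5 times smaller, and with the identifier series within tissue as a covariate it was -1.90 (adjusted p = 2.51e-05 by edgeR). Leaving out single animals gave -1.35 to -0.83. ABHD5 had a difference of -0.73 (SE 0.28, adjusted p = 0.0593 by edgeR) in the same comparison. It became called without animal 22130 (-0.98, adjusted p = 0.0147) and with the identifier series (-1.35, adjusted p = 8.78e-04), and was -0.46 without animal 21189 and -0.35 without the 4 libraries. For the change from pre- to post-treatment, 0 of 5 members were called by edgeR, where 0.0487% of genes were called, and 0 reached an unadjusted p under 0.05, where 10.6% of genes did. The G0S2 difference was -0.59 (SE 0.71, adjusted p = 0.813) and the PLIN1 difference -1.03 (SE 0.70, adjusted p = 0.628). Single animals moved both: the G0S2 difference was -1.26 without animal 19832 and -0.04 without animal 22130, and the PLIN1 difference was -0.59 without animal 23004. The decrease of these genes in AT was thus not shown to differ from their course in SM.

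Other genes of lipid droplets and neutral lipid hydrolysis formed a list of 27, of which 24 were tested in AT; FABP4 is on this list and among the adipocyte markers. Post-treatment 9 were called, 8 lower and 1 higher, where 15.5% of all genes were called, and the median over the list was -0.20 on the log2 scale against 0.03 over all genes. The lower genes with the largest changes were DGAT2, which makes triglyceride (-1.13, SE 0.27, adjusted p = 0.0135), METTL7B, a droplet-associated protein (-1.10, adjusted p = 0.00238), CES1, a carboxylesterase (-1.06, adjusted p = 0.0180), and PNPLA3, a relative of adipose triglyceride lipase (-1.05, adjusted p = 0.0363), all by edgeR.

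Between post-treatment and washout 8 of the 24 were called, 5 higher and 3 lower, where 35.4% of all genes were called. The largest changes were in HSD17B13, which averaged 0.403 CPM at washout (log2 fold change 2.09), LIPA, the lysosomal acid lipase (-1.96, adjusted p = 0.00610), AADAC, an esterase (-1.91, adjusted p = 0.00278), and PNPLA3 (1.81, adjusted p = 7.41e-04), all by edgeR. PNPLA3 thus went down and then up, whereas LIPA, at 1.26 post-treatment, had not passed the test then (adjusted p = 0.0741). Compared to pre-treatment, HSD17B13 (1.51) and AADAC (-1.36) were called at washout, 2 of 24 where 20.5% of all genes were called. In SM 0 of 22 tested genes of the list were called by edgeR in any comparison.

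Cyclic AMP signalling through protein kinase A, which phosphorylates perilipin 1 and hormone-sensitive lipase, was represented by 15 tested genes of 16 listed. Post-treatment in AT, ADCY6, an adenylyl cyclase, was lower (-0.50, adjusted p = 0.0312), and PRKAR1A, a regulatory subunit of the kinase, was higher (0.42, adjusted p = 0.0131), both by edgeR, 2 of 15 where 15.5% of all genes were called, and the list median was 0.01. Between post-treatment and washout 6 of 15 were called, 2 higher and 4 lower, where 35.4% of all genes were called. The largest were PRKAR2A, another regulatory subunit (-1.41, adjusted p = 3.48e-05), ADCY6 (0.64), PRKAR1A (-0.58) and PRKACB, a catalytic subunit (-0.57). Compared to pre-treatment, PRKAR2A (-1.60), PDE4B, a phosphodiesterase (0.64), PRKACA (-0.40) and PRKACB (-0.34) were called at washout, 4 of 15 where 20.5% of all genes were called. In SM 0 of 15 were called by edgeR in any comparison.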

How the data were processed

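RNA was sequenced from punch biopsies with a stranded mRNA kit and paired reads of 50 bases. Alignment was to the MacaM genome by STAR, and the authors deposited whole-number counts per gene that had not been normalized; the counting tool and its strand setting are not given in the sources used here, so reads of overlapping antisense genes cannot be told apart. Of 51 labelled samples, 3 of SM were not analysed here, having no counts. Repeat entries of a gene were dropped, which left 16033 of 16103. Groups followed the labels for tissue, time point and animal.

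Members, lists and tests were chosen with earlier results of these data known. Genes reaching 0.5 CPM in 10% or more of a tissue's libraries were tested with edgeR 4.0.16 in R 4.3.3 (TMM normalization, robust quasi-likelihood fit, time point and animal in the model, 1 fit per tissue). Values are CPM with TMM scaling, and changes within animals are in log2 CPM with a prior count of 2. An animal with 1 library in a tissue adds nothing to its comparisons. Depth held members at 25 counts or more per library, so the spread between animals limits precision, not counting error. Libraries of 1 animal went together after removal of time point means: the median r was 0.352 over 25 pairs against -0.0354 over 217 pairs of different animals in AT, and 0.279 over 19 against -0.0464 over 127 in SM, and the pairing comes from animal numbers in the labels.

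From the other lists, called genes were named, up to 4 a list and comparison by largest log2 fold change in either direction, and the 3 genes most like each member. The planned ratio of G0S2 to PNPLA2 and pairs with PNPLA2, LIPE and CIDEC were replaced after the data were seen by G0S2 to ABHD5 and all 10 pairs of the 5 members. Alternatives were voomWithQualityWeights of limma 3.58.1, DESeq2 1.42.0, other scalings, filters and models, the identifier series as a covariate, and each animal left out. The identifier series in the AT minus SM comparison, and leaving out post-treatment SM libraries by their marker levels, were added after the data were seen. The fit was run on simulated counts with 200 genes raised by 1.5 on the log2 scale post-treatment and no differences between animals. That setting differs from the data, so it does not show how well changes of the members' size are called. Exact tests used SciPy 1.17.1 with NumPy 2.4.6 and pandas 2.3.3 in Python 3.11.15, and figures matplotlib 3.10.9. Gene sequences and positions are not printed, because no genome of the build was used here.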

Additional observations from a re-analysis of the deposited data

Results flagged for a closer look

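Of 30 groups of libraries (5 genes, 2 tissues and 3 time points), 8 held a library that stood apart from the rest of its group by Dixon's criterion. For independent, normally distributed values, chance alone gives this in about 1 of 20 groups. The criterion was applied to CPM without a log scale and the groups share animals and libraries, so that rate need not hold here. In AT these were PLIN1 post-treatment in animal 20275 (619 CPM, next 1407 CPM) and PLIN2 pre-treatment in animal 20456 (675 CPM, next 381 CPM). In SM, animal 19832 stood apart pre-treatment in ABHD5 (6.20 CPM, next 12.4 CPM) and in G0S2 (633 CPM, next 150.5 CPM), and animal 23004 at washout in G0S2 (316 CPM, next 116 CPM). PLIN1 in SM stood apart in animal 24849 pre-treatment (104 CPM, next 13.7 CPM) and post-treatment (133 CPM, next 41.1 CPM), and in animal 20456 at washout (29.3 CPM, next 10.5 CPM).

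MGLL differed between the tissues in its change from post-treatment to washout, by -1.16 on the log2 scale, AT minus SM (adjusted p = 0.00751 by edgeR). Without the 4 post-treatment SM libraries low in muscle markers it was -0.68 (adjusted p = 0.0716 by edgeR).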

How the results depend on the processing

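Under every alternative run, G0S2 was called lower post-treatment in AT (22 of 22, adjusted p from 6.16e-04 to 0.0498). The number of members called in AT post-treatment went from 2 to 1 with only the 2 time points compared. At washout compared to post-treatment it went from 2 to 1 without the replicate block (the animal term that pairs libraries), with the identifier series, or with only the 2 time points. At washout compared to pre-treatment it went from 0 to 3 with voomWithQualityWeights or only the 2 time points, 2 with DESeq2, and 1 with at least 10 counts in every library or the identifier series. In SM, the identifier series gave 2 called members in both washout comparisons. Leaving out single animals or libraries gave 1 to 2 members in AT post-treatment, 0 to 3 and 0 to 2 in its washout comparisons, and 1 to 2 for the AT minus SM washout difference (ABHD5 joined MGLL without animal 22130). Without animal 21189 the 2 members called in AT post-treatment were ABHD5 and G0S2. The AT minus SM washout difference gave 2 called members with the identifier series and 0 without the 4 post-treatment SM libraries low in muscle markers. The share of all genes called also differed between settings and is not given for each. These counts of members alone therefore do not show how stable the members were. The causes were not tested.

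Some values near 0 changed sign. In SM post-treatment, voomWithQualityWeights gave 0.060 for ABHD5 and 0.42 for G0S2. PLIN2 in SM at washout compared to post-treatment was 0.064 without the block, 0.22 with the identifier series and 0.017 with only the 2 time points, and its AT minus SM post-treatment difference was -0.051 without the block. Leaving out single animals gave -0.24 to 0.17 for ABHD5, -0.78 to 0.35 for G0S2 and -0.19 to 0.70 for PLIN1 in SM post-treatment, -0.97 to 0.040 for G0S2 and -0.12 to 0.084 for PLIN2 in SM at washout compared to post-treatment, and -0.36 to 0.22 for the PLIN2 difference. Without the 4 SM libraries, the post-treatment values in SM were 0.35 for ABHD5, 0.12 for G0S2 and 0.22 for MGLL, and the AT minus SM differences -0.11 for MGLL and -0.41 for PLIN2; without the SM post-treatment library of animal 21189 ABHD5 was 0.12 and the PLIN2 difference -0.07. Without single animals, the mean change of the PLIN2 to PLIN1 ratio ranged from 0.52 to 1.12 in AT post-treatment, from -1.46 to -0.70 in AT at washout compared to post-treatment, -0.14 to 0.10 at washout compared to pre-treatment and -0.72 to 0.20 in SM post-treatment; that of the G0S2 to ABHD5 ratio ranged from -0.73 to -0.41 in AT post-treatment, -0.14 to 0.19 in AT at washout compared to pre-treatment and -0.85 to 0.26 in SM post-treatment. The G0S2 to ABHD5 ratio in SM post-treatment was 0.85 within 1 identifier series, a value from 1 animal. Some pairs crossed the threshold or changed sign: r was 0.827 for ABHD5 with MGLL, 0.148 for G0S2 with MGLL and 0.475 for MGLL with PLIN2 in the last series, and -0.6802 for G0S2 with PLIN2 and -0.041 for MGLL with PLIN1 with library size only.

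The planned ratio of G0S2 to PNPLA2 and 3 planned pairs were not run, because PNPLA2, LIPE and CIDEC were not analysed here.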
